A study of Mus musculus with 6 samples.

Results

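Fos, Fosb, Fosl1, Fosl2, Jun, Junb and Jund, which encode the subunits of the transcription factor AP-1, were followed together with Egr1, Nr4a1 and Dusp1, immediate early genes that answer the same stimuli. They were taken by name, 10 of the 55298 genes listed, and all 10 were above 0 in every library. RNA-seq was run on cancer-associated fibroblasts (CAFs) of orthotopic lung tumours in wild-type C57BL/6 mice over 8 weeks old, with no treatment in the labels. The apCAFs, for antigen-presenting CAFs (libraries 1, 2 and 3), carried MHC class II on their surface and the nonapCAFs (libraries 4, 5 and 6) did not. Both groups shared the rest of the gate: high forward scatter, no CD45, CD31, EPCAM or mCherry, and staining for PDGFRa and for a protein the labels write as PDPL. Tumours were pooled, and the labels give 3 independent experiments without saying which apCAFs and nonapCAFs library came from the same one.

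AP-1 is a dimer. FOS and JUN proteins pair through leucine zippers and bind short DNA elements, and JUN proteins can also pair with each other, whereas FOS proteins need a JUN partner. Growth factors, cytokines and stress raise the short-lived Fos, Jun, Egr1 and Nr4a1 transcripts within minutes through MAP kinases, with serum response factor and CREB at many of the promoters. Dusp1 encodes a phosphatase that switches those kinases off again. Enzymatic dissociation and sorting of tissue are known to induce the same genes in many cell types.

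Nr4a1 and Dusp1 were 3.51-fold and 3.30-fold higher in apCAFs and were the members that passed the test, and Fos, at 2.46-fold, lay just outside the threshold. Of the 10 genes, 9 had the higher mean in apCAFs, and in those 9 each apCAFs library exceeded each nonapCAFs library. Fosl1 lay the other way and its groups overlapped. The test was limma on log2(value + 1) of the authors' normalized counts with 3 libraries a group, and p-values were adjusted over all 36443 tested genes. It called 2 of 10 members higher and 0 lower. Of all tested genes 4.40% were called, 3.91% higher and 0.486% lower, and of these calls 89.0% were higher (78.9% with quantile-normalized values). Among the 1869 genes whose mean over the libraries reached 10000, which all members exceed, 6.10% were called higher and 0.00% lower. A log2 difference above 0, as 9 of 10 members had, was found for 47.6% of all tested genes and 42.6% of these abundant ones. Groups that did not overlap were higher in apCAFs for 17.1% of all tested genes and 28.7% of the abundant ones, and lower for 15.4% and 27.4%. The median log2 difference of the members was 0.85, against -0.04 over all tested genes and -0.07 over the abundant ones. The plot of values by library shows each of the 10 genes.

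**Figure D1:**
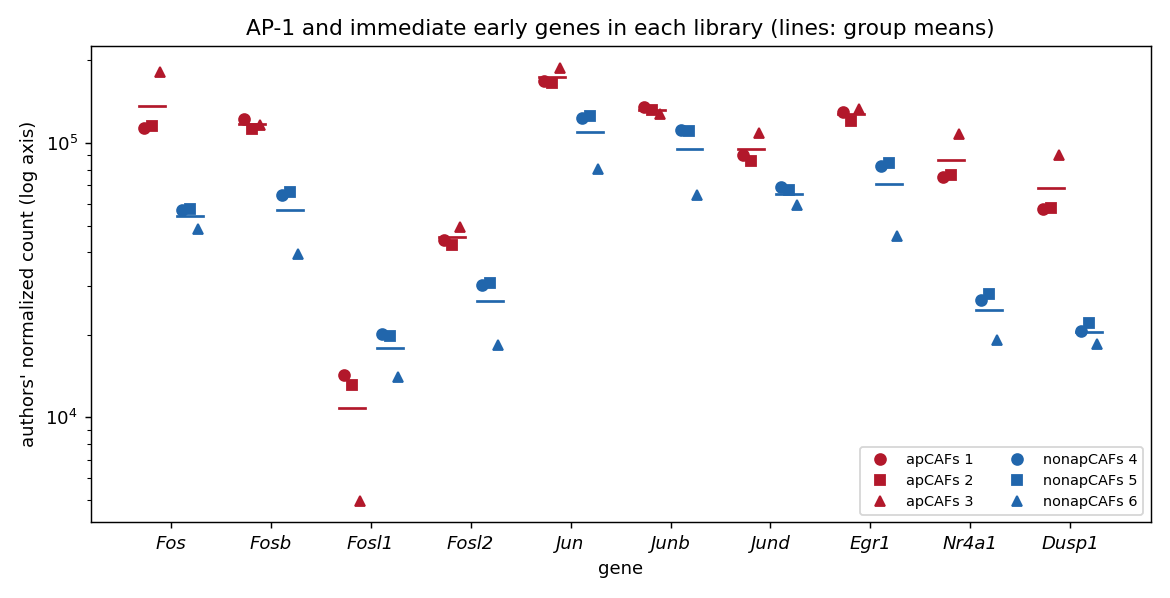
The authors' normalized counts (log axis) of the 10 genes in each library, with horizontal lines at the group means. The apCAFs points lie above the nonapCAFs points for 9 genes, with the widest gap for Nr4a1 and Dusp1, and Fosl1 lies lower in apCAFs with overlapping groups.

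Nr4a1 encodes an orphan nuclear receptor that is made within minutes of a stimulus. It lies on chromosome 15 from 101254269 to 101274795 (mm10, plus strand). Its values were 75447, 76722 and 107408 in apCAFs 1, 2 and 3 and 26727, 28200 and 19133 in nonapCAFs 4, 5 and 6. The apCAFs values were all far above the nonapCAFs ones, with apCAFs 3 highest and nonapCAFs 6 lowest. The means were 86526 ± 18096 and 24687 ± 4866 (SD, n = 3), a log2 difference of 1.81 (SE 0.24, limma adjusted p = 0.0247).

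Dusp1 (chromosome 17, 26505590 to 26562128, minus strand) had 57559, 57897 and 90748 in apCAFs and 20698, 21986 and 18468 in nonapCAFs. As for Nr4a1, apCAFs 3 stood above its group, and here the nonapCAFs were close together. The means were 68735 ± 19065 and 20384 ± 1780 (SD, n = 3), a log2 difference of 1.72 (SE 0.23, limma adjusted p = 0.0251). The long gene model of Dusp1 includes a transcript that reaches Ergic1 on the other strand. Ergic1 had 12689 to 17171 in the 6 libraries.

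Both calls depend on the libraries and genes in the fit. With the close pairs averaged (apCAFs 1 with 2, nonapCAFs 4 with 5) the limma adjusted p was 0.222 for Nr4a1 and 0.224 for Dusp1, and with genes at 0 in every library kept in the fit it was 0.0652 for both. Without apCAFs 3, which leaves the close pair apCAFs 1 and 2, the limma adjusted p was 0.0361 for Nr4a1 and 0.0154 for Dusp1. Leaving out any other single library ended both calls, with adjusted p from 0.0547 (without nonapCAFs 6) to 0.0848 (without nonapCAFs 4) for Nr4a1 and from 0.0658 (without apCAFs 1) to 0.0953 (without nonapCAFs 4) for Dusp1, while the log2 differences stayed between 1.64 and 1.92 for Nr4a1 and between 1.51 and 1.83 for Dusp1. Without apCAFs 1 and 2, the libraries rich in surfactant transcripts, Nr4a1 was at 2.14 (limma adjusted p = 0.0538) and Dusp1 at 2.16 (limma adjusted p = 0.0230).

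**Figure D2:**
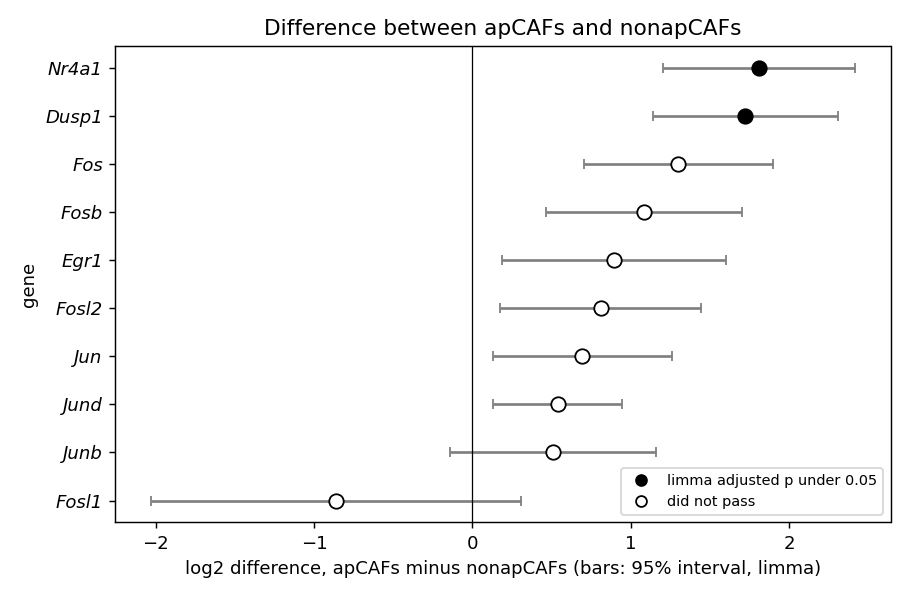
The log2 difference of each gene, apCAFs minus nonapCAFs, with the 95% interval from limma, filled where the adjusted p passed 0.05. Nr4a1 (1.81) and Dusp1 (1.72) are filled, Fos follows at 1.30, and the intervals of Junb and Fosl1 cross 0.

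The promoters of the genes with the largest differences are shown as a description, chosen after the values were seen. CREB binds the cyclic AMP response element (CRE, full letters TGACGTCA). The part of CREB in the differences was not tested. The 250 bases before the RefSeq start (GRCm38.p6) were searched on both strands for the CRE core TGACG, which the full CRE contains on each strand. Capitals mark each match, written TGACG or, on the other strand, CGTCA, and Jun is given as an abundant member without one.
Nr4a1 (chr15:101266596-101266845, plus strand): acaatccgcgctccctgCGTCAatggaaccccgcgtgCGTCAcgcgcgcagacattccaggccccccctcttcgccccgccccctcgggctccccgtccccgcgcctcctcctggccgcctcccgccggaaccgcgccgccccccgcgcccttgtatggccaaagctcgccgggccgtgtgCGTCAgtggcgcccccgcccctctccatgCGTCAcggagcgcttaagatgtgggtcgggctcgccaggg
Dusp1 (chr17:26508473-26508722, minus strand): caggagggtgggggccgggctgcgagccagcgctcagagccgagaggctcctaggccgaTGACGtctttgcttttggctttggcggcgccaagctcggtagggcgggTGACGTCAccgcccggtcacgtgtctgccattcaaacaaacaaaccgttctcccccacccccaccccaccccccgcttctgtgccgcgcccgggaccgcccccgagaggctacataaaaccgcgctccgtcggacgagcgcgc
Fos (chr12:85473640-85473889, plus strand): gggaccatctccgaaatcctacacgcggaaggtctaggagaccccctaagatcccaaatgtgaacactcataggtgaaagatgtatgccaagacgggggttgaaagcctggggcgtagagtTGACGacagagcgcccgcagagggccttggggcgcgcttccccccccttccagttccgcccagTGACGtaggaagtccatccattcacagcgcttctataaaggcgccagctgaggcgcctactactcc
Jun (chr4:95052223-95052472, minus strand): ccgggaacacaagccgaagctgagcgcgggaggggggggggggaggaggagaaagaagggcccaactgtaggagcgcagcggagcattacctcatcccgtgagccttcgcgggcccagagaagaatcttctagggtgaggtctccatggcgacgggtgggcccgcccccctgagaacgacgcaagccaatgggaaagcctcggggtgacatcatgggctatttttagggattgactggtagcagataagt

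The core occurred 4 times in the Nr4a1 window, 3 times in that of Dusp1 and 2 times in that of Fos. It occurred 1 time each for Fosb and Junb and was not in these letters for Jun and Fosl2. The Jun window does hold tgacatca, which is close to the full CRE but lacks the core. Of all 32851 RefSeq windows of the same length, 17.8% held at least 1 core and 3.90% at least 2. In Nr4a1 the 4 matches began 40, 69, 213 and 233 bases before the start, all on the opposite strand to the gene. In Dusp1 the matches at 143 and 140 bases are the 2 strands of a full CRE, a motif held by 1.55% of all windows, and another core began 191 bases before the start. In Fos the matches began 129 and 66 bases before the start, upstream of a TATAAA at 33 bases (12.4% of windows hold TATAAA on either strand). None of the member windows held the AP-1 element TGACTCA, found in 4.46% of all windows. None held the CArG box bound by serum response factor, found in 1.47% of all windows. Bases outside these short windows were not searched, so the absence cannot show that a gene, Fos included, lacks either element. GCGNGGGCG, the letters bound by EGR1, occurred in the windows of Fosb, Fosl2 and Nr4a1 and in 4.70% of all windows. RefSeq windows were found for 8 members. No window was used for Fosl1 and Egr1, and that of Jund ends well before the gene model of the files and was set aside. The RefSeq starts of Nr4a1 and Dusp1 lay 12577 and 53656 bases inside their gene models, and these windows were kept. A match is a run of letters and was not tested as a binding site.

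None of the 4 FOS subunit genes passed the test described above. With a variance trend and robust estimation in limma, Fos (limma adjusted p = 0.00251), Fosb (0.00735) and Fosl2 (0.0318) passed and Fosl1 (0.240) did not. The mean was higher in apCAFs for Fos, Fosb and Fosl2 and lower for Fosl1. Fos (chromosome 12, 85473890 to 85477273, plus strand), the founding member, had 113012, 115599 and 181869 in apCAFs and 56847, 57347 and 48719 in nonapCAFs. All apCAFs values were above all nonapCAFs values, and apCAFs 3 was well above apCAFs 1 and 2. The means were 136827 ± 39029 and 54304 ± 4844 (SD, n = 3), a log2 difference of 1.30 (SE 0.24, limma adjusted p = 0.0502). Without apCAFs 3, which leaves the close pair apCAFs 1 and 2, the difference was 1.08 and passed (limma adjusted p = 0.0295). Without any other single library it was 1.22 to 1.42, short of the threshold, with limma adjusted p from 0.0956 (without apCAFs 1) to 0.149 (without nonapCAFs 4).

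Fosb (chromosome 7, 19302696 to 19310051, minus strand), whose protein resembles FOS and whose transcript rises with it, had 122459, 112346 and 116432 in apCAFs and 64542, 66254 and 39391 in nonapCAFs. Here the apCAFs were close together and nonapCAFs 6 stood low. The log2 difference was 1.08 (SE 0.24) and did not pass (limma adjusted p = 0.0834). Fosl2, which encodes the later-induced subunit FRA-2 (chromosome 5, 32135801 to 32157842, plus strand), had 44356, 42379 and 49345 in apCAFs and 30348, 30896 and 18353 in nonapCAFs. The groups did not overlap, nonapCAFs 6 was again lowest, and the log2 difference of 0.81 (SE 0.25) did not pass (limma adjusted p = 0.170).

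Fosl1 encodes FRA-1, a FOS subunit without the activation domain of FOS (chromosome 19, 5447547 to 5455946, plus strand). It had 14257, 13100 and 4965 in apCAFs and 20126, 19750 and 13981 in nonapCAFs. apCAFs 3 was the lowest library, and apCAFs 1 lay just above nonapCAFs 6, so the groups overlapped. The log2 difference was -0.86 (95% interval -2.03 to 0.31, limma adjusted p = 0.354), and without apCAFs 3 it was -0.37 (adjusted p = 0.426). Fosl1 overlaps Ccdc85b on the other strand, which had 18119, 18306 and 7993 in apCAFs and 24618, 24534 and 19289 in nonapCAFs. The strand setting of the counting is not given in the sources used here, so reads of the pair cannot be told apart.

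The JUN subunits were abundant in both groups and gave no call in the test described above. With a variance trend and robust estimation in limma, Jun (limma adjusted p = 0.0344) and Jund (0.0226) passed and Junb (0.151) did not. Jun (chromosome 4, 95049034 to 95052222, minus strand) had 168773, 165890 and 188284 in apCAFs and 123421, 125591 and 80398 in nonapCAFs. The groups did not overlap, and nonapCAFs 6 stood far below the other nonapCAFs. The log2 difference was 0.69 (95% interval 0.13 to 1.26, limma adjusted p = 0.184). With quantile-normalized values it was 0.22 (adjusted p = 0.447).

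Junb (chromosome 8, 84974484 to 84978718, minus strand), a weaker activator than JUN, had 135720, 132160 and 127524 in apCAFs and 111462, 110377 and 64417 in nonapCAFs. The apCAFs were tight and most of the spread lay in nonapCAFs 6. Its log2 difference was 0.51 (95% interval -0.14 to 1.16, limma adjusted p = 0.331), and without nonapCAFs 6 it was 0.25 (adjusted p = 0.455). Jund (chromosome 8, 70698949 to 70700616, plus strand), the JUN gene with the steadiest basal expression, had 90048, 86014 and 108725 in apCAFs and 69072, 67265 and 59259 in nonapCAFs. The groups did not overlap, and the log2 difference was 0.54 (95% interval 0.13 to 0.94, limma adjusted p = 0.157). Gm11175, an antisense gene inside Jund, read 51218 to 93807 over the libraries, and Junos, antisense to Jun, 12656 to 27867. Both followed the order of groups of their sense partners, and without strand the reads of each pair cannot be told apart.

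Egr1, a zinc-finger factor and a classical sign of recent stimulation, is on chromosome 18 from 34859823 to 34864984 (plus strand). It had 129643, 120047 and 132671 in apCAFs and 82633, 84698 and 45968 in nonapCAFs. The groups did not overlap and the apCAFs were close together. The log2 difference was 0.89 (SE 0.28, limma adjusted p = 0.173), and it was 0.61 (adjusted p = 0.138) without nonapCAFs 6.

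In the authors' deposited table, DESeq2 called 8 of the 10 members, all higher in apCAFs, where 30.3% of the 19255 genes with an adjusted p there were called and 20.6% were called higher. That table gave Nr4a1 a log2 fold change of 1.81 (DESeq2 adjusted p = 3.47e-15), Dusp1 1.75 (7.74e-15) and Fos 1.33 (1.51e-08). Fosl1 (DESeq2 adjusted p = 0.115) and Junb (0.0991) did not pass in the authors' deposited table. With a variance trend and robust estimation, limma called the same 8 members, and 9.80% of all tested genes. Fosl1 (limma adjusted p = 0.240) and Junb (0.151) again did not pass. The cause of the difference in calls between the limma test described above and that table was not tested.

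The spread over the libraries differed among the higher genes, described after the values were seen and with no test. Nr4a1, Dusp1, Fos and Jund stood clearly higher in apCAFs 3 than in apCAFs 1 and 2. Dusp1 (r = 0.996), Jund (r = 0.988) and Nr4a1 (r = 0.986) followed Fos over the 6 libraries more closely than the other members did. The SD of the log2 values was 0.39 among apCAFs and 0.13 among nonapCAFs in Fos, 0.38 and 0.13 in Dusp1, and 0.18 and 0.12 in Jund. Nr4a1 varied about as much in both groups (0.29 and 0.30). Fosl2 (r = 0.9997), Egr1 (r = 0.995), Fosb (r = 0.981) and Junb (r = 0.948) followed Jun, with apCAFs close together and nonapCAFs 6 low. In this set the SD of the log2 values was 0.05 (Junb) to 0.11 (Fosl2) among apCAFs and 0.36 (Jun) to 0.50 (Egr1) among nonapCAFs. The patterns were not exclusive. nonapCAFs 6 was also the lowest library for Fos, Dusp1, Nr4a1 and Jund. apCAFs 3 was the highest apCAFs library for 7 members, Jun, Fosl2 and Egr1 included. Nr4a1 (r = 0.938) and Jund (r = 0.934) followed Jun nearly as closely as Junb did. These r values are across 6 libraries that fall into the 2 groups, so the group difference itself carries part of them.

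**Figure D3:**
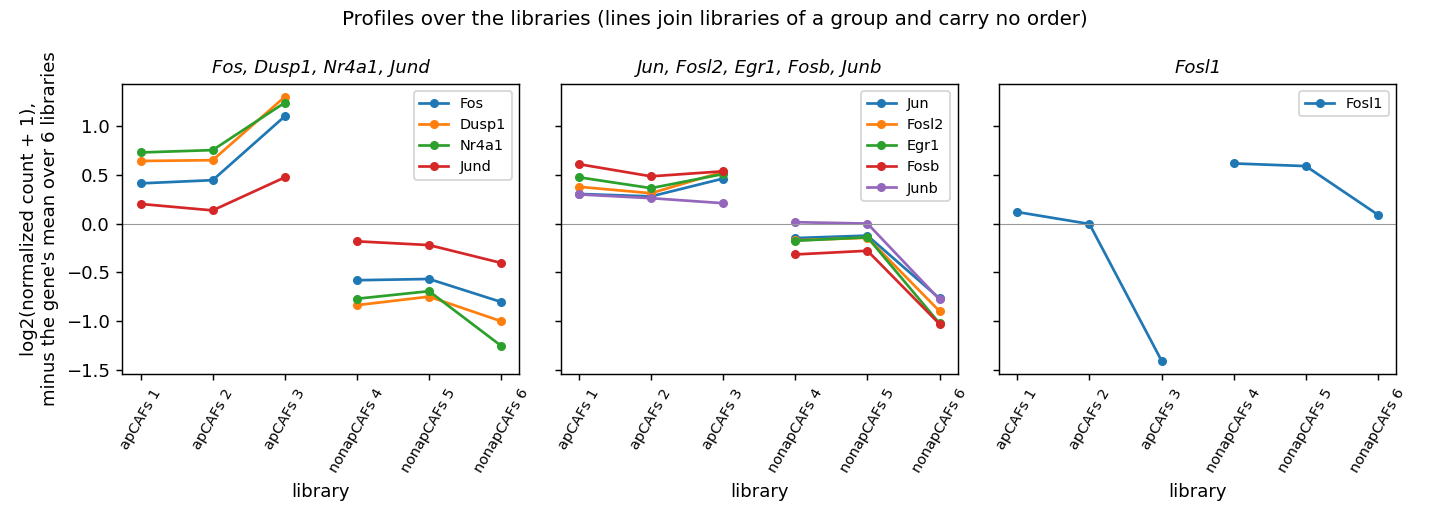
The log2(normalized count + 1) of each gene minus its mean over the 6 libraries. In the left panel Fos, Dusp1, Nr4a1 and Jund peak in apCAFs 3, in the middle panel Jun, Fosl2, Egr1, Fosb and Junb are lowest in nonapCAFs 6, and in the right panel Fosl1 is lowest in apCAFs 3. The genes of the left panel are also lowest in nonapCAFs 6.

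nonapCAFs 6 was the lowest of all 6 libraries for 9 of the 10 members, Fosl1 being the exception, and 29.7% of the abundant genes and 11.5% of all tested genes had it lowest. Without apCAFs 3 and nonapCAFs 6 together, the median log2 difference of the members was 0.54. The same fit called 4 of 10 members higher (Nr4a1, Dusp1, Fos and Fosb) and 7.11% of all tested genes. It holds only the close pairs, apCAFs 1 with 2 and nonapCAFs 4 with 5. Its p-values therefore rest on the small spread within those pairs, and more calls there are not stronger evidence. With the close pairs averaged instead, limma called 0 genes.

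Likeness to Fos and to Jun was ranked by Pearson's r of the log2 values over the 6 libraries, as a description, among 9273 genes whose mean reached 1000. The 5 most like Fos over the 6 libraries were Lpcat3 (r = 0.9993), Col4a5, Fzd7, Ifi204 and Efna5 (r = 0.9990). The 5 most like Jun were Fosl2, Dusp16 (r = 0.9996), Col5a1, Bhlhe40 and Tut4 (r = 0.9981). Fosl2 is the only AP-1 subunit among these 10. In likeness to Fos, Dusp1 ranked 77, Jund 289 and Nr4a1 367. In likeness to Jun, Egr1 ranked 16, Fosb 65 and Junb 264. Many genes that are not members thus followed Fos or Jun more closely than these members did.

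Levels of different genes were compared per kilobase of annotated exon. In apCAFs the order by mean was Fos (58175 ± 16594 per kb, SD, n = 3), Junb (57280 ± 1786), Jund (56912 ± 7264) and Jun (54662 ± 3820), which lay within the spread of one another. Egr1 (28424 ± 1470), Nr4a1 (24658 ± 5157), Dusp1 (20760 ± 5758) and Fosb (18754 ± 815) followed, and Fosl1 (5300 ± 2491) and Fosl2 (4686 ± 371) were lowest. Neighbours among these 4 genes lay within the larger SD of the pair, as did Fosl1 and Fosl2, so their order is not settled. In nonapCAFs the JUN genes led, with Junb at 41468 ± 11670 per kb, Jund at 39088 ± 3131 and Jun at 34432 ± 7993. Fos came after them at 23089 ± 2059 per kb. By level per kb, Fos ranked 100 in apCAFs and 263 in nonapCAFs among all tested genes with a length, and Nr4a1 ranked 259 and 903. Levels per kb depend on the gene model: with the principal transcript in place of all exons, the order in apCAFs was Junb (72859 per kb), Fos (64908), Jund (56912), Jun (54662), Dusp1 (34540), Nr4a1 (33892), Fosb (30957), Egr1 (28424), Fosl2 (6939) and Fosl1 (5780). Egr1 thus moved below Dusp1, Nr4a1 and Fosb, and Fosl1 below Fosl2.

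A ratio of 2 genes within a library does not depend on a scaling by 1 factor per library. Quantile normalization is not of that kind, and under it the log2 difference was 0.24 for Junb and 0.22 for Jun, against 0.51 and 0.69 in the values as deposited. Fos divided by Jun was 0.670, 0.697 and 0.966 in apCAFs and 0.461, 0.457 and 0.606 in nonapCAFs. Fosl1 divided by Jun was 0.0845, 0.0790 and 0.0264 in apCAFs and 0.163, 0.157 and 0.174 in nonapCAFs, so the groups did not overlap, unlike Fosl1 on its own. Nr4a1 divided by Jun was 0.447, 0.462 and 0.570 in apCAFs against 0.217, 0.225 and 0.238 in nonapCAFs. Each apCAFs library thus held more Fos and Nr4a1 and less Fosl1 for its Jun than each nonapCAFs library. Of the 9 members, 7 had ratios to Jun without overlap, and 86.2% of abundant genes and 48.7% of all tested genes did too. A two-sided exact permutation test of 3 against 3 libraries cannot go below 0.1, which is the p of each of these 7 ratios, while Junb (exact permutation p = 0.2) and Jund (0.4) overlapped. Nr4a1 divided by Dusp1 was 1.27 ± 0.08 in apCAFs and 1.20 ± 0.14 in nonapCAFs (SD, n = 3), and these overlapped.

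**Figure D4:**
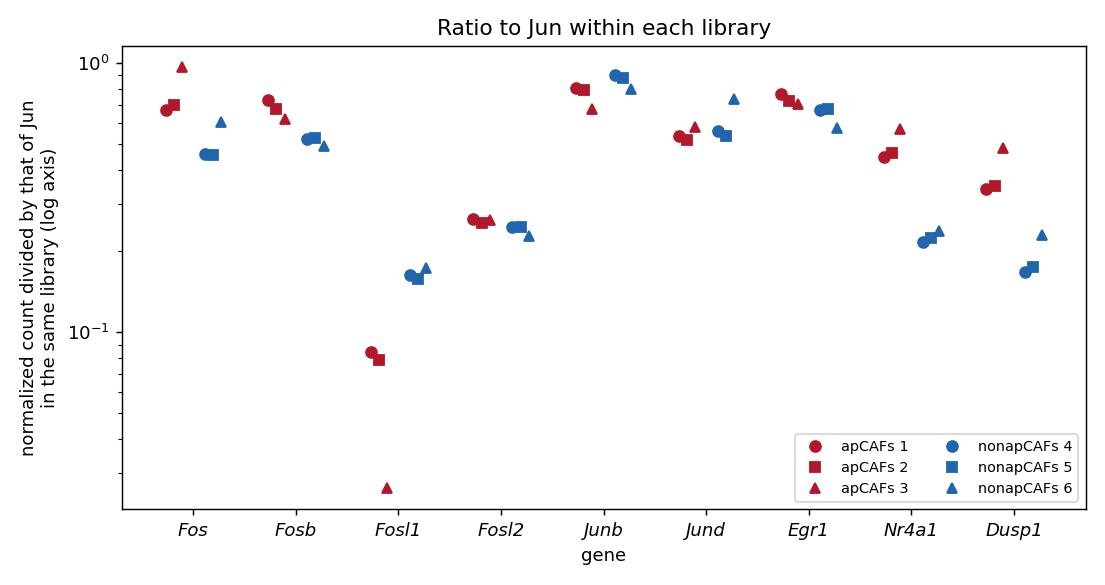
The normalized count of each gene divided by that of Jun in the same library (log axis). Fos, Fosb, Fosl2, Egr1, Nr4a1 and Dusp1 have higher ratios in every apCAFs library than in any nonapCAFs library, Fosl1 has lower ones, and Junb and Jund overlap.

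Other immediate early genes, outside the 10, were higher in part. Of 23 such genes 4 rose and none fell, where 3.91% of all tested genes were called higher and 0.486% lower. Their median log2 difference was 0.67. Klf4, a zinc-finger factor, had 16572, 16127 and 29258 in apCAFs and 3744, 3892 and 3379 in nonapCAFs (5.41-fold, limma adjusted p = 0.0182). Nr4a3, a relative of Nr4a1, had 22871, 22803 and 20451 against 4659, 5515 and 2284 (5.66-fold, limma adjusted p = 0.0291). Both exceeded every nonapCAFs library in each apCAFs library. The antiproliferative gene Btg2 was 3.84-fold and Zfp36l1, which encodes an mRNA decay factor, 2.69-fold higher (limma adjusted p = 0.0478 and 0.0451). Without apCAFs 1, apCAFs 2, nonapCAFs 4 or nonapCAFs 5, limma called 0 of the 23 genes, and without apCAFs 3 or nonapCAFs 6 it called 2. With values divided by library totals, quantile-normalized or median-centred it also called 2, Klf4 and Nr4a3. Zfp36, Myc and Egr3, named after their values were seen, did not pass: Zfp36 had 145324 ± 18057 in apCAFs and 92997 ± 38847 in nonapCAFs, Myc 44232 ± 25733 and 68452 ± 27309, and Egr3 5430 ± 2167 and 6446 ± 3164 (SD, n = 3). nonapCAFs 6 was the lowest library for 22 of the 23 genes.

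**Figure D5:**
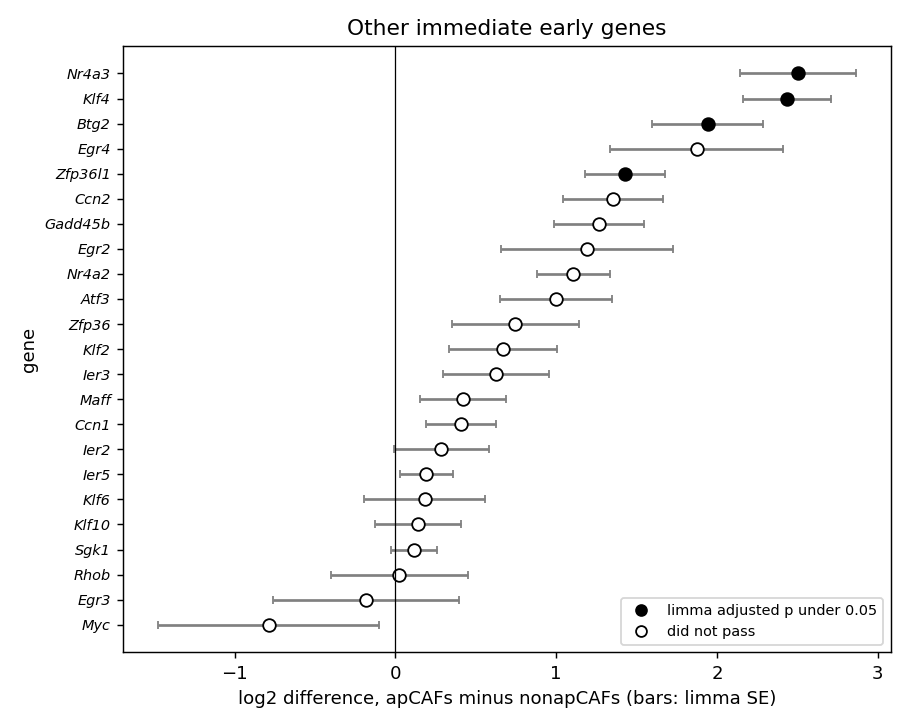
The log2 difference, apCAFs minus nonapCAFs, of the 23 other immediate early genes, with limma's SE, filled where the adjusted p passed 0.05. Nr4a3, Klf4, Btg2 and Zfp36l1 are filled, and Myc and Egr3 lie below 0.

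Of 13 further bZIP factors that can pair with AP-1 subunits or resemble them, 1 rose and none fell (median log2 difference 0.42). Over all tested genes 3.91% were called higher. At an unadjusted limma p under 0.05 there were 6 of the 13, beside 7021 of 36443 tested genes. Groups did not overlap for 6 higher and 2 lower factors, beside 17.1% and 15.4% of all tested genes. The authors' deposited table called 6 of the 13 (DESeq2), beside 30.3% of its genes. The gene that limma called was Batf3, a partner of JUN proteins known from dendritic cells. It had the low values of 405, 359 and 699 in apCAFs and 139, 131 and 108 in nonapCAFs (limma adjusted p = 0.0357). That call was lost without any single library other than apCAFs 3, with a log2 difference of 1.78 to 2.08 and limma adjusted p of 0.0694 to 0.119. Maf, named after its values were seen, lay just outside the threshold (8.86-fold, limma adjusted p = 0.0501). It had 6937, 7066 and 19963 in apCAFs and 936, 774 and 1939 in nonapCAFs. The abundant stress factors Atf4 (24463 ± 4154 and 25742 ± 1840) and Atf3 (23522 ± 2037 and 12442 ± 4707, SD, n = 3) did not pass.

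Genes upstream of AP-1 and the brakes on it gave no call, which at 4.40% of all tested genes called is near the background. The authors' deposited table called 30.3% of its genes (DESeq2). With limma, 7021 of the 36443 tested genes had an unadjusted p under 0.05. Of 14 MAP kinase phosphatases and feedback inhibitors other than Dusp1, limma called 0, with 1 at an unadjusted p under 0.05 and a median log2 difference of -0.08, and the authors' deposited table called 3 (DESeq2). Dusp6, a MAP kinase phosphatase gene, had 14998 ± 772 and 16632 ± 1760, and the RAS pathway inhibitor Spred1 15536 ± 1248 and 14985 ± 694 (SD, n = 3). Of 19 MAP kinases, their kinases and serum response or CREB factors, limma called 0, with 3 at an unadjusted p under 0.05 and a median of -0.02, and the authors' deposited table called 5 (DESeq2). Elk3, a partner of serum response factor, had 12122 ± 1958 in apCAFs and 14356 ± 524 in nonapCAFs (SD, n = 3).

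Of 15 textbook AP-1 target genes 1 rose and none fell (median log2 difference -0.08), near the 3.91% called higher over all tested genes. It was Timp1, a metalloproteinase inhibitor, with 32634, 33764 and 46565 in apCAFs and 11545, 11269 and 9870 in nonapCAFs (3.42-fold, limma adjusted p = 0.0180). Leaving out any single library but apCAFs 3 ended that call, with a log2 difference of 1.70 to 1.87 and limma adjusted p of 0.0530 to 0.0679. The most abundant members did not pass: Ccl2, a monocyte chemokine, had 63665 ± 16606 and 57425 ± 26868, and Spp1, which encodes osteopontin, 44392 ± 13844 and 68509 ± 7077 (SD, n = 3).

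Heat shock and stress genes that rise with AP-1 during tissue dissociation were read beside these results. limma called 0 of 14, with 5 at an unadjusted p under 0.05, a median log2 difference of 0.17 and 4 called in the authors' deposited table (DESeq2). Over all tested genes limma called 4.40%, and 7021 of 36443 had an unadjusted p under 0.05. Of the genes in the authors' deposited table, 30.3% were called (DESeq2). The most abundant, the chaperone genes Hsp90ab1 and Hspa5, had 186919 ± 42317 and 126190 ± 14646 in apCAFs and 244286 ± 13712 and 111146 ± 20528 in nonapCAFs. Hspa1a, named after its values were seen, had 67499, 66037 and 239147 in apCAFs and 17403, 16840 and 39308 in nonapCAFs. It was highest in apCAFs 3, as Fos, Nr4a1 and Dusp1 were, but within nonapCAFs it was highest in library 6, where those genes were lowest. Hspa1a and Hspa1b are near-identical copies, so their reads may be split between them. The part of dissociation in the members' differences was not tested.

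Among all tested genes 3.91% were called higher and 0.486% lower, and the authors' deposited table called 30.3% of its genes (DESeq2). A marker list without a limma call can still hold large differences where the libraries of a group vary. Of 10 fibroblast markers 4 were called higher and 0 lower, and their summed value was 2825975 to 4267525 in apCAFs and 1205400 to 1443753 in nonapCAFs. Lum, named after its values were seen, lay the other way without overlap (10139 ± 1783 and 18786 ± 2888, SD, n = 3), at a limma adjusted p of 0.0952. Of 7 mesothelial markers 7 were called higher, and their sum was 37051 to 47448 in apCAFs and 1900 to 2795 in nonapCAFs. Of 8 alveolar type II markers 0 were called, and their sum was 92779 in apCAFs 1, 76552 in apCAFs 2 and 5582 in apCAFs 3, while nonapCAFs ran from 5696 to 5945. The median log2 difference of these 8 was 4.83, and the authors' deposited table called 7 of them, all higher (DESeq2). Of 8 epithelial markers 2 were called higher (10845 to 16148 against 7278 to 10390). Krt19, named because it is in both lists, is 1 of these 2 and also 1 of the 7 mesothelial markers. Leukocyte markers (0 of 9 called) summed to 3956 to 11967 and 1974 to 2769, and endothelial markers (0 of 6 called) to 342 to 635 and 282 to 422. Of the 9 leukocyte markers 4 had an unadjusted limma p under 0.05, beside 7021 of 36443 tested genes. The authors' deposited table called 3 of the 9 higher and 1 lower (DESeq2). Of the leukocyte sums in apCAFs 1, 2 and 3 (11967, 11614 and 3956), Lyz2 made up 9898, 9470 and 640. Itgax, the 1 leukocyte marker lower in apCAFs without overlap, had 267, 303 and 177 against 526, 556 and 553. Both were named after their values were seen, and 3 of the 9 were higher without overlap. The part of other cell types in the members' differences was not tested. In these bulk libraries, fewer cells with a transcript and less transcript per cell cannot be told apart.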

How the data were processed

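Gene expression was measured in 3 apCAFs and 3 nonapCAFs libraries. Build mm10 and the tools Bowtie2, Trim Galore and DESeq2 come from the submitters' processing notes, which give no roles or versions. Which program counted reads, and whether by strand, is not given in the sources used here. Per the file headers, the authors deposited normalized counts rounded to whole numbers, which are treated as a score, not as raw counts; their totals run from 77960347 to 93330791 and sequencing depth is unknown, so no counting interval is given. The authors' deposited table also holds DESeq2 p-values and adjusted p-values, a ratio of group means, its log2, and the GC percent, which was not used.

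Differences were estimated with limma (version 3.58.1, R 4.3.3) from log2(value + 1), with a term for group alone, for the 36443 of 55298 genes above 0 in at least 1 library. Fold changes are 2 to the power of the fitted log2 difference, and SE is moderated. P-values are two-sided, Benjamini-Hochberg adjusted, with calls at 0.05. A count model, planned for raw counts, was not used because the deposited values are not raw. The fit was tested on simulated data. Exon lengths came from GENCODE M21, which gives all 10 members the coordinates in the files. Symbols that were renamed (such as Cyr61 to Ccn1) were matched through RefSeq synonyms.

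The members and gene lists were chosen with earlier results of these data known. Named are all 10 members; from each of 6 wider lists up to 4 called genes by smallest p, or the 2 most abundant where fewer than 2 were called; and the 5 genes most like Fos and Jun. Some items are not reported here. Exceptions are marked, and Batf3 and Timp1 are named as the single call of their list. Pseudocount, filter, scaling, variance model and libraries were varied.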

Additional observations from a re-analysis of the deposited data

How the results depend on the processing

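Under all 18 alternatives, the authors' DESeq2 values included, each of the 10 members kept its direction. The log2 difference ran from 1.47 to 2.14 for Nr4a1, 1.44 to 2.16 for Dusp1, 0.999 to 1.75 for Fos and -1.83 to -0.37 for Fosl1. Scaling to library totals moved the median of all genes by -0.14 and quantile normalization by -0.15 on the log2 scale, and the members' median was then 0.70 and 0.64. Calls moved more. Over the whole table the fit called 1602 genes and 2 members; the lists of other immediate early genes, bZIP partners, AP-1 targets, phosphatases, upstream factors and heat shock genes held 4, 1, 1, 0, 0 and 0. Leaving out 1 library gave 310 to 1791 genes, 0 to 3 members, 0 to 2 immediate early genes, 0 to 1 bZIP partners, 0 to 1 targets and 0 to 1 heat shock genes. With close pairs averaged (apCAFs 1 with 2, nonapCAFs 4 with 5) there were 0 genes, hence 0 members, 0 immediate early genes, 0 bZIP partners and 0 targets, with 4706 genes and 4 members at an unadjusted p under 0.05; that fit has fewer samples. With no filter there were 436 genes, 0 members, 0 immediate early genes and 0 bZIP partners. With genes of a mean value of at least 100 there were 2748 genes, 5 members, 7 immediate early genes, 2 bZIP partners, 2 targets, 1 upstream factor and 3 heat shock genes. A pseudocount of 10 gave 2527, 4, 7 and 2, with 1 upstream factor and 1 heat shock gene. A pseudocount of 0.5, library totals, quantile normalization and median centring each gave 2 immediate early genes, and quantile normalization 0 bZIP partners. A variance trend with robust estimation gave 3571 genes, 8 members, 8 immediate early genes, 2 bZIP partners, 2 targets, 1 phosphatase, 1 upstream factor and 3 heat shock genes. Without apCAFs 3 and nonapCAFs 6 there were 2489 genes, 4 members, 3 bZIP partners, 3 targets and 4 heat shock genes. That fit holds only the close pairs. Without apCAFs 1 and 2 there were 4575 genes, 2 immediate early genes, 2 targets, 2 phosphatases, 1 upstream factor and 1 heat shock gene, the lone apCAFs library being assumed to vary like nonapCAFs. The authors' deposited table called 5842 genes, 8 members, 10 immediate early genes, 6 bZIP partners, 5 targets, 3 phosphatases, 5 upstream factors and 4 heat shock genes. Except where the construction is named, the cause was not tested.

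Genes that were not called changed sign as follows. Leaving out 1 library, Spred1 ran from -0.015 to 0.084, Atf4 from -0.18 to 0.060, Egr3 from -0.70 to 0.21 and Ccl2 from -0.23 to 0.50. Spred1 was at -0.10 with library totals, -0.029 with quantile normalization, -0.045 with median centring, -0.015 without apCAFs 3 and -0.052 without apCAFs 3 and nonapCAFs 6. Hspa5 was at -0.21 with quantile normalization and -0.00081 without apCAFs 1 and 2. Atf4 was at 0.060 without apCAFs 3 and 0.0032 without apCAFs 3 and nonapCAFs 6. Egr3 was at 0.21 without apCAFs 3, 0.077 without nonapCAFs 4 and 0.080 without nonapCAFs 5. Ccl2 was at -0.23 without nonapCAFs 6, -0.0015 without apCAFs 3 and nonapCAFs 6 and -0.21 without apCAFs 1 and 2.

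No paired analysis was possible because the replicate numbers of the groups, 1 to 3 against 4 to 6, have none in common, and no label ties an apCAFs to a nonapCAFs library. The labels give 3 experiments but not the experiment of each library, so p-values measure only the spread between these libraries, part of which can be technical.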

Other observations

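Some inducible genes of the lists, chosen after their values were seen, were low in apCAFs 3 and in nonapCAFs 6 alike. The phosphatase gene Dusp2 had 5913, 5819 and 743 in apCAFs 1, 2 and 3 and 7765, 7713 and 2348 in nonapCAFs 4, 5 and 6. Egr3, a relative of Egr1, had 6742, 6618 and 2929 in apCAFs and 8254, 8291 and 2793 in nonapCAFs. The metalloproteinase genes Mmp9 and Mmp13 and the cytokine gene Il11 had the same shape, with Mmp13 at 534, 563 and 92 in apCAFs and 648, 641 and 85 in nonapCAFs. Fos, Nr4a1 and Dusp1, in contrast, were highest in apCAFs 3.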
